A study of Rattus norvegicus with 19 samples.

Results

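Cytochrome P450 enzymes other than those of testosterone and estrogen synthesis were followed through the Leydig cell lineage of the rat. They were the genes whose symbol begins with Cyp, a family number, a letter and a member number, without Cyp11a1, Cyp17a1 and Cyp19a1. The rule found 59 probe sets for 54 genes in 13 families, out of 14217 genes named on the array, and each gene was represented by its brightest probe set. A further 7 probe sets that carry several symbols were left out, and no probe set of the rule stood for Cyp2r1 or Cyp24a1.

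The study measured RNA on 19 Affymetrix arrays from Sprague-Dawley rats. Its groups were 4 stages of the Leydig cell, namely stem cells on 5 arrays, progenitors on 3, immature cells on 4 and adult cells on 4, and bone stem cells on 3 arrays. The labels give no treatment or genetic change. Age, isolation, culture and pooling are not given in the sources that were read, and it is not said which arrays share an animal or a culture. The p-values therefore reflect the spread among the arrays, and part of it may be technical. Signals are on a linear scale on which the 2% trimmed mean of each array was 100.

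Cytochrome P450 enzymes are heme proteins that insert an oxygen atom into their substrate. Those in the endoplasmic reticulum take electrons from P450 oxidoreductase, the product of Por, and those in mitochondria from ferredoxin, the product of Fdx1. Families 1 to 4 are best known from the liver, where they oxidize drugs, toxins and fatty acids, and other families act on sterols, bile acids, vitamin D or retinoic acid. Leydig cells are known above all for the steroid-making members that were left out here. The adult Leydig cell is the main source of testosterone, and the progenitor and immature cells are its forerunners after birth.

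The main pattern was a rise of a small set of P450 genes at the last step, from immature to adult cells. Cyp2a1, Cyp2a3 and Cyp2e1 had signals of at most 54.8 on the arrays of the earlier Leydig stages and of at least 237 on the adult arrays. Cyp4f4 and Cyp27a1 rose over several steps, Cyp26b1 was higher in progenitor and immature cells than in stem or adult cells, and Cyp2j4, Cyp2u1 and Cyp20a1 were highest among the Leydig stages in stem cells. The stretches of sequence before the start of 4 of the genes that rose at the adult step are shown here. They are the 250 bases before the transcription start in RefSeq, build GRCr8, on the gene's strand, with 5′ at the left. Capitals mark the letters TATAAA, the core of a TATA box, and in Cyp27a1 the letters TGACCTT, the reverse strand of AAGGTCA, which is the kind of half-site that the steroidogenic factor Nr5a1 binds.
Cyp2a1, chr1:91359028-91359277, plus strand: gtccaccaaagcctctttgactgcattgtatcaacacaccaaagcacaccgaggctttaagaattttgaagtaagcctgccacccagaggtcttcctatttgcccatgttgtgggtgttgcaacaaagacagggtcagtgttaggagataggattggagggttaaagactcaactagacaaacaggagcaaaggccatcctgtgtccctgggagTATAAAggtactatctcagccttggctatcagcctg
Cyp2a3, chr1:91299334-91299583, plus strand: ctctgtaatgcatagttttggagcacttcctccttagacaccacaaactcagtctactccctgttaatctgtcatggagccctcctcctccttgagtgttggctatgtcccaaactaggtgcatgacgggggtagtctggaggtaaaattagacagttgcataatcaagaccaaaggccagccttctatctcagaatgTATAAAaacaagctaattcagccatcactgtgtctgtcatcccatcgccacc
Cyp2e1, chr1:205269717-205269966, plus strand: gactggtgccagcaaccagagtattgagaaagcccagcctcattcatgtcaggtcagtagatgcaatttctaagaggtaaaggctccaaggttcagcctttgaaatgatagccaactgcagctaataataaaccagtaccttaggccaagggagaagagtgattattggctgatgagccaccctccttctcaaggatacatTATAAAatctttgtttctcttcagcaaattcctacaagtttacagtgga
Cyp27a1, chr9:83713282-83713531, plus strand: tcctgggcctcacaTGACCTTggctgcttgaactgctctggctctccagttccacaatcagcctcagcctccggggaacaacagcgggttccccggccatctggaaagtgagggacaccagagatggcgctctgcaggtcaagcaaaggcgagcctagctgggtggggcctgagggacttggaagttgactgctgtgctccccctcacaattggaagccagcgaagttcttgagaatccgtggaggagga
TATAAA on the gene's strand lay 36 bases before the start in Cyp2a1, 52 in Cyp2a3 and 49 in Cyp2e1. Of these only Cyp2a1 had it within the window from 40 to 20 bases before the start. In that window TATAAA was found in 6 of 44 members (13.64%), against 1.189% of all promoters. Anywhere in the 250 bases it was found in 11 of the 44 members with a promoter in the table (25%). Of all 33469 promoters of that length 8.055% had it. The members were Cyp1a2, Cyp21a1, Cyp26a1, Cyp2a1, Cyp2a3, Cyp2c7, Cyp2c11, Cyp2c12, Cyp2c13, Cyp2c22 and Cyp2e1. Of these, only Cyp2a1, Cyp2a3 and Cyp2e1 were higher in adult than in immature cells in the test described below. AAGGTCA on either strand was found in 5 of 44 members (11.36%), namely Cyp21a1, Cyp27a1, Cyp2c7, Cyp2u1 and Cyp3a2, against 3.992% of all promoters. The motifs can overlap, and in 1 member, Cyp2c7, they shared 2 bases. Neither motif was found before Cyp2f4, Cyp2t1, Cyp4f1, Cyp4f6 or Cyp8b1, which also rose at the adult step. Cyp2a2, Cyp4f4 and Cyp4v3, the other members that rose there, had no promoter among those read and were not searched. A match is a description of the sequence, and binding was not measured.

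Many members were dim. For 25 of the 54 the mean signal was under 16 in every group, a level that 29.1% to 47.3% of probe sets on an array did not reach. These were Cyp11b1, Cyp1a1, Cyp1a2, Cyp21a1, Cyp26a1, Cyp2a2, Cyp2b12, Cyp2b21, Cyp2b3, Cyp2c12, Cyp2c13, Cyp2c22, Cyp2c23, Cyp2c6v1, Cyp2c7, Cyp2d2, Cyp2d3, Cyp2g1, Cyp3a18, Cyp3a2, Cyp3a23-3a1, Cyp46a1, Cyp4a1, Cyp4a8 and Cyp7a1. They include many genes typical of the liver, such as Cyp7a1, the rate-limiting enzyme of bile acid synthesis, and the adrenal enzymes Cyp11b1 and Cyp21a1. A further 11 reached a group mean of 16 to 50, and 18 reached 50 or more. Without detection calls a signal under 16 has no tested floor, so these genes are described as dim and not as absent.

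**Figure D1:**
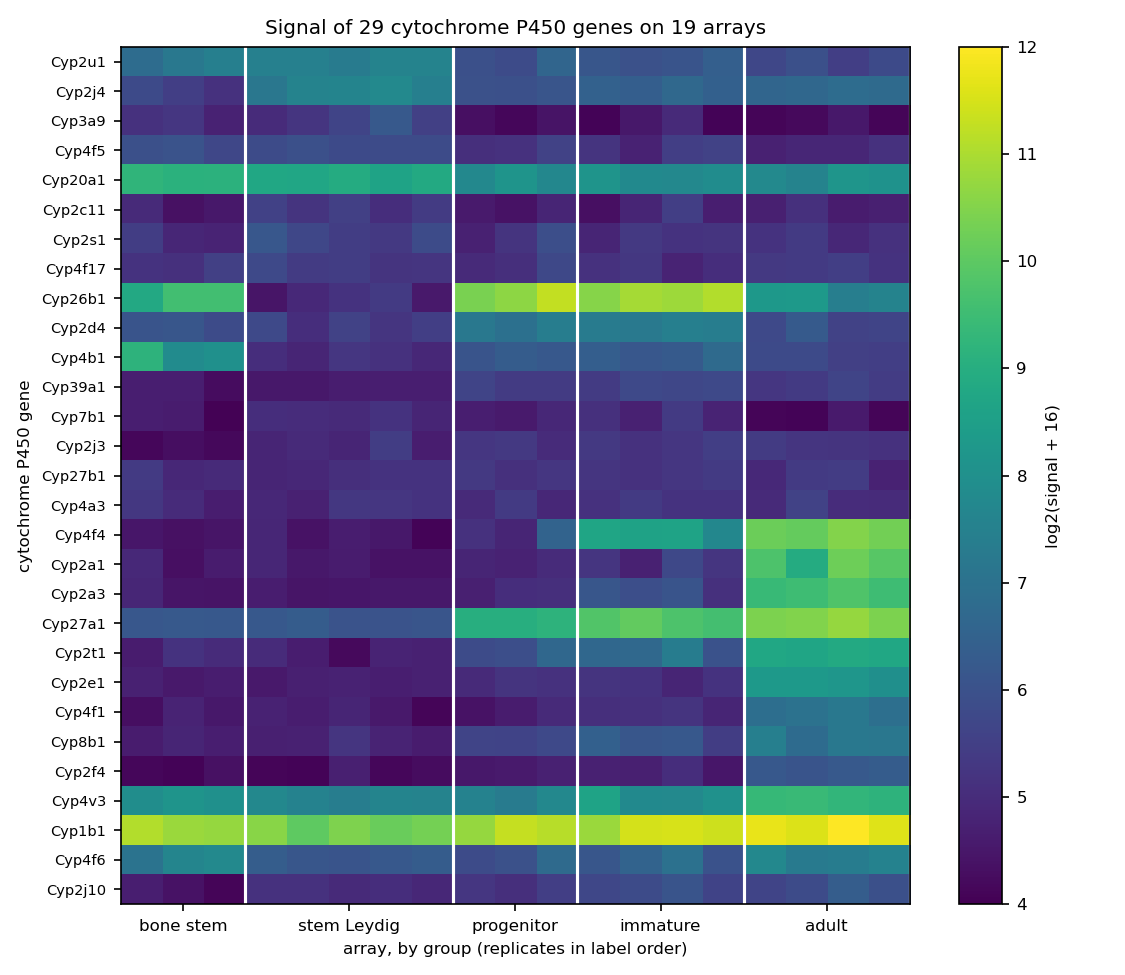
Heat map of log2(signal + 16) for the 29 P450 genes with a mean signal of 16 or more in at least 1 group, in rows, on the 19 arrays, in columns by group. Genes are ordered by the Leydig stage with the highest mean, then by the range across stages. The bright cells at the right of the Cyp2a1, Cyp2a3 and Cyp2e1 rows are the 4 adult arrays, and the Cyp26b1 row is dark on the 5 stem Leydig arrays.

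Differences were tested on log2(signal + 16) in 1 limma model of all arrays, with p-values adjusted over 31042 probe sets, and a gene was called at an adjusted p under 0.05. Log2 changes are on that scale, are given with the standard error (SE), and understate the change of dim genes. Among the 4 Leydig stages 26 of 54 members (48.1%) differed in the F-test, while 63.9% of all named genes did. Of these 26, 14 were highest in adult cells, 6 in immature, 0 in progenitor and 6 in stem cells. How all genes that differed split among the stages was not counted, so this split is not read as particular to the members. At the single steps, 16 members were called between progenitor and stem cells (29.6%), where 45.3% of all genes were. At the step from progenitor to immature cells 3 were called (5.56%, against 1.94% of all genes). All 3 were higher (1.33% of all genes were), and 0 were lower in limma (0.612% of all genes were). With so small a share, 0 of 54 is near that of all genes. At an unadjusted p under 0.05 limma had 9 members higher and 0 lower, and the share of all genes was not counted at that threshold. At the same step 5 of 6 germ cell markers were higher, with sums of 144 to 316 in progenitor and 406 to 999 in immature cells. Of the 5 endothelial markers Kdr and Cldn5 were lower, with sums of 683 to 1430.1 and 191 to 564, and of the 9 leukocyte markers Tyrobp was. Their part in the 3 calls was not tested. At the step from immature to adult cells 17 were called (31.5%, against 29.3%). The split by direction differed at that last step: 12 members were higher in adult cells (22.2%, against 12% of all genes) and 5 were lower (9.26%, against 17.3%). The median log2 change of the 54 members at that step was 0.01, and over all genes -0.06.

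The arrays differed in ways that touch these results. Immature replicate 4 was closer to the progenitors than to its own group (mean correlation across probe sets 0.972 and 0.959), and progenitor replicate 3 had the highest 3′ to 5′ ratio of beta-actin (6.35, against 1.03 to 2.95 on the others). The closest arrays of a group, bone stem replicates 2 and 3, differed by a median of 0.07 on the log2 scale over 5243 bright probe sets. The 8 Leydig markers, among them Lhcgr, Insl3 and Hsd3b1, summed to 12355 to 22836 in progenitor and immature and 21318 to 32220.1 in adult cells, but to 370.0 to 1600.3 in stem Leydig and 83.4 to 614 in bone stem cells. The arrays labelled stem Leydig cells thus did not carry these markers at the level of the later stages. Their 5 smooth muscle markers summed to 4333 to 10925, and those of bone stem cells to 7910.0 to 11656, against 190 to 1130 later. The 9 leukocyte markers summed to 8311 to 10150 in bone stem and 254 to 293 in stem Leydig cells.

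Cyp2a1 and Cyp2a3 had the largest log2 changes of the 54 genes at the adult step. Rat Cyp2a1 encodes a hydroxylase of testosterone, and Cyp2a3 a related enzyme best known from lung and nasal tissue. Cyp2a1 had signals of 12.8, 6.83, 8.52, 5.20 and 5.20 in stem cells, 12.1, 11.2 and 15.8 in progenitors, 21.6, 10.5, 37.8 and 21.7 in immature cells and 858, 474, 1190.5 and 957 in adult cells. Adult arrays all lay far above the rest, and the other stages lay close together. The mean was 869.6 ± 299 (SD, n = 4) in adult and 22.9 ± 11.2 (SD, n = 4) in immature cells, a log2 change of 4.48 ± 0.24, adjusted p = 1.59e-10. These are bulk samples, so more cells with a transcript and more of it per cell cannot be told apart.

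Cyp2a3 followed the same course but was already higher on 4 of 4 immature arrays. Its signals were 8.78, 5.90, 6.31, 6.85 and 6.88 in stem cells, 10.04, 16.8 and 17.7 in progenitors, 54.8, 44.4, 51.5 and 18.8 in immature cells and 651, 716, 864 and 721 in adult cells. Immature replicate 4 was the lowest of its group and lay near the progenitors. The adult step was 3.74 ± 0.19, adjusted p = 7.97e-11. The step before it, 0.88 ± 0.21, adjusted p = 0.0359, lost its call when any of several arrays was left out, with adjusted p up to 0.157 without progenitor replicate 1. Cyp2a2, named after its values were seen, encodes a close relative and stayed dim, with adult signals of 1.88, 15.02, 7.04 and 5.76 and immature signals of 1.87, 0.654, 3.18 and 0.425. Its adult step was called at 0.39 ± 0.11, adjusted p = 0.0133, and the call was lost in a fit of only those 2 groups (adjusted p = 0.105). Genes of this subfamily are similar in sequence, and how far the probe sets tell them apart was not tested.

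Cyp2e1, an enzyme of ethanol and small solvents that is abundant in liver, had low signals before the adult stage. Its signals were 15.2, 20.8 and 19.7 in progenitors, 21.2, 20.1, 12.2 and 19.8 in immature cells and 302, 307, 278 and 237 in adult cells. No adult array came near the others, and the step was 3.12 ± 0.14, adjusted p = 9.07e-12. The stem arrays, at 7.60, 9.98, 11.3, 9.75 and 10.8, lay below the progenitors, but that step of 0.41 ± 0.14, adjusted p = 0.0263 was not called after quantile normalization (adjusted p = 0.266) or median centring (0.377), nor without progenitor replicate 2 (0.101), progenitor replicate 3 (0.0741) or stem replicate 1 (0.0531).

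Cyp2t1 and Cyp2f4 completed the family 2 genes that rose. Cyp2f4 belongs to the subfamily of lung enzymes that activate naphthalene, and its adult signals of 57.4, 51.6, 58.5 and 64.7 stood above immature signals of 10.6, 10.3, 16.9 and 6.47 (1.46 ± 0.15, adjusted p = 4.92e-07). Cyp2t1 went up in stages. It had signals of 15.9, 9.16, 2.24, 11.5 and 10.4 in stem, 41.3, 44.6 and 85.5 in progenitor, 86.1, 87.5, 148 and 48.5 in immature and 423, 399, 449.5 and 423 in adult cells. The stem and progenitor groups did not overlap (1.47 ± 0.25, adjusted p = 6.64e-05), the progenitor and immature groups did (0.54 ± 0.26, adjusted p = 0.42), and the adult arrays were narrow and far above (2.10 ± 0.24, adjusted p = 2.21e-06). Of the 25 family 2 members, 6 were higher (24%, against 12% of all genes) and 1 lower (4%, against 17.3%) in adult than in immature cells.

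**Figure D2:**
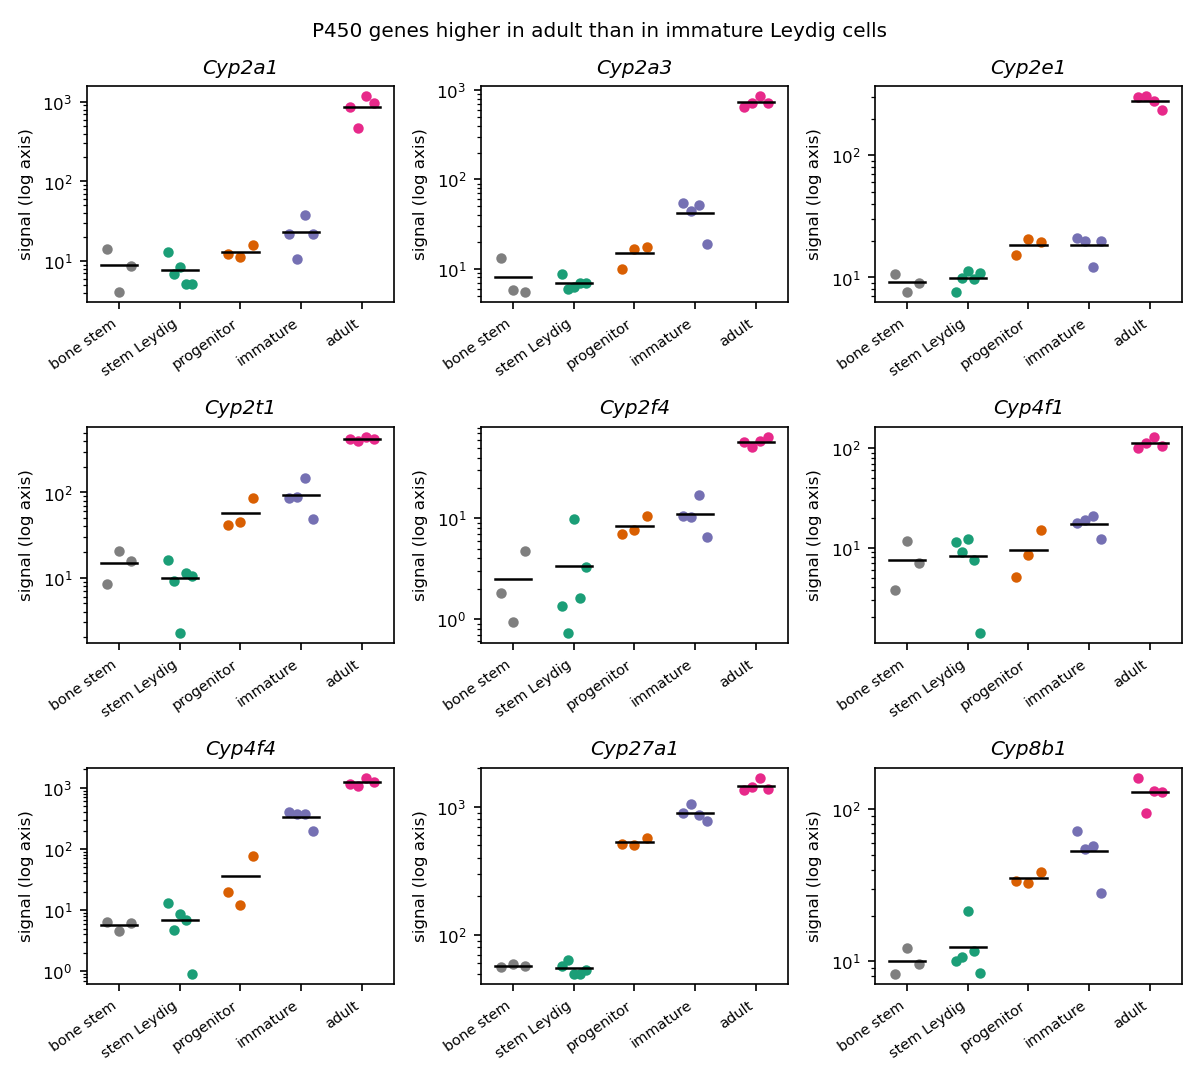
Signals on a log axis for 9 P450 genes that were higher in adult than in immature Leydig cells, with 1 point per array, 5 groups along the x axis and a bar at the group mean. The 4 adult points lie above all immature points in every panel, and Cyp27a1, Cyp4f4 and Cyp8b1 are raised before the adult stage.

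Several of these genes lie side by side. In the RefSeq gene order of build GRCr8, Cyp2a3, Cyp2a1, Cyp2a2, Cyp2f4 and Cyp2t1 follow each other on chromosome 1 with 0 other protein-coding genes between them. All 5 were called higher in adult than in immature cells. They are part of a run of 10 members, and the stretch of 5 was marked off with the calls known. Its count is therefore not set against the 12% of all genes called higher. Cyp2a2 was dim, its groups overlapped, and its call was lost in a fit of only the groups compared (adjusted p = 0.105). How far the probe sets tell the Cyp2a genes apart was not tested. The members next to these 5 in the same run, Cyp2s1, Cyp2b3, Cyp2b21, Cyp2b12 and Cyp2g1, were not called, with log2 changes from -0.16 to 0.23. Cyp2g1, the direct neighbour of Cyp2a3, was at -0.16 ± 0.15, adjusted p = 0.51. Cyp2s1, which acts on retinoids and fatty acids, had signals of 20.3, 25.02, 13.7 and 19.001 in adult and 12.7, 24.2, 20.3 and 20.9 in immature cells. On chromosome 7 the Cyp4f genes lie farther apart, with 3 other protein-coding genes between Cyp4f5 and Cyp4f4 and 5 between Cyp4f4 and Cyp4f1: Cyp4f17 and Cyp4f5 were not called at that step, and Cyp4f4, Cyp4f1 and Cyp4f6 were higher in adult cells.

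**Figure D3:**
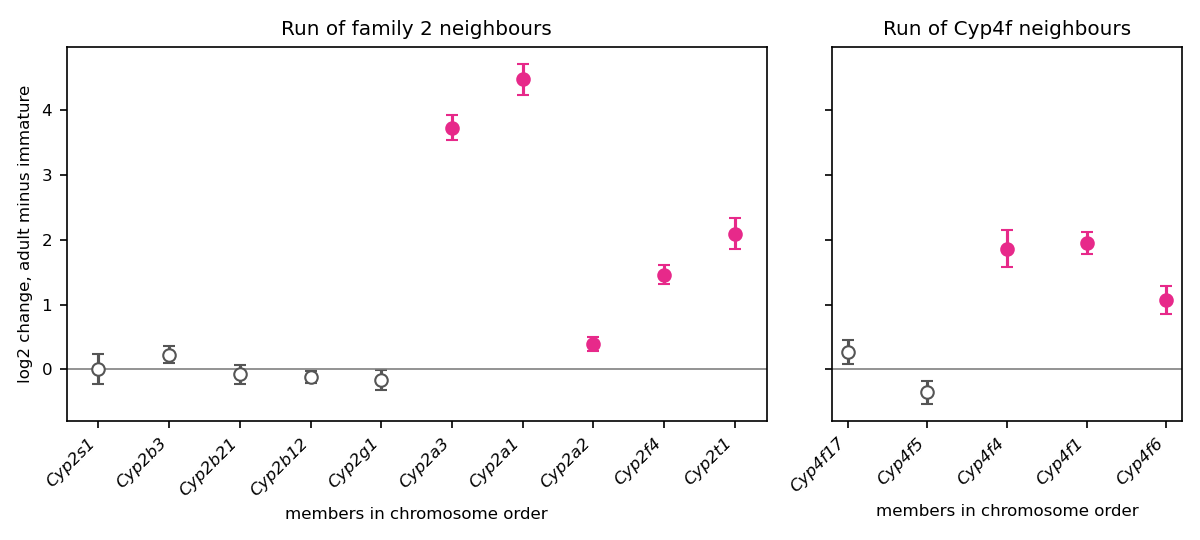
Log2 change of the signal from immature to adult cells (y axis, bars are SE) for P450 genes that lie in a run on a chromosome, in RefSeq order, with family 2 at the left and Cyp4f at the right. Filled points were called: the 5 members from Cyp2a3 to Cyp2t1 and the 3 from Cyp4f4 to Cyp4f6 lie above 0.

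Family 4 holds fatty acid hydroxylases, and its Cyp4f members also inactivate leukotrienes. Cyp4f4 was called higher at each step, but the first call rested on 1 array. It had signals of 12.9, 4.79, 8.79, 6.91 and 0.903 in stem, 19.6, 12.3 and 77.6 in progenitor, 405, 379, 379 and 193 in immature and 1165, 1086, 1456 and 1251 in adult cells. Progenitor replicate 3 stood above the other progenitors, and immature replicate 4 below the other immature arrays. The steps were 1.02 ± 0.29, adjusted p = 0.00852, then 2.91 ± 0.30, adjusted p = 5.18e-05, then 1.87 ± 0.28, adjusted p = 5.66e-05. The step from stem cells, whose groups overlapped, fell to a log2 change of 0.50 and lost its call without progenitor replicate 3 (adjusted p = 0.12).

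Cyp4f1 joined only at the end, from 17.7, 18.9, 20.7 and 12.1 in immature to 102, 114, 130.3 and 106 in adult cells (1.95 ± 0.17, adjusted p = 1.02e-07). Cyp4f6 had adult signals of 197, 141, 149 and 173 against 54.6, 77.2, 109 and 49.05 in immature cells (1.07 ± 0.22, adjusted p = 0.00109). Cyp4v3, the relative of a human gene whose loss causes a corneal and retinal dystrophy, was present in all groups and rose from 379.9, 209, 203 and 250.4 to 645, 671, 606 and 559 (1.24 ± 0.15, adjusted p = 5.24e-06). Its dimmer second probe set was also called at that step, with a log2 change of 0.81. Cyp4f5, named after its values were seen, fell from stem cells, at 41.3, 46.03, 39.6, 40.7 and 40.3, to progenitors, at 17.8, 19.2 and 31.6 (-0.58 ± 0.18, adjusted p = 0.0139), which was no longer called without progenitor replicate 1 (adjusted p = 0.0742) or 2 (0.0648). Of the 10 family 4 members, 4 were higher (against 12% of all genes) and 1 lower (against 17.3%) in adult than in immature cells. Cyp4a8, a kidney and liver fatty acid hydroxylase, stayed between 1.70 and 22.8 on all arrays.

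Of the 6 sterol and bile acid enzymes, 3 were higher in progenitor than in stem cells, a step at which 26.8% of all genes were. From immature to adult cells 2 were higher and 1 lower, against 12% and 17.3% of all genes, so the count of lower ones was near the background share. Cyp27a1, the mitochondrial sterol 27-hydroxylase, rose at each step. Its signals were 57.01, 64.3, 49.6, 49.6 and 53.4 in stem, 507, 505 and 565 in progenitor, 895, 1056, 856 and 767 in immature and 1357, 1414, 1677 and 1366 in adult cells, with no overlap between neighbouring stages. The steps were 2.94 ± 0.11, adjusted p = 5.93e-14, 0.74 ± 0.12, adjusted p = 0.00214 and 0.70 ± 0.11, adjusted p = 9.82e-05. The middle step was not called in a fit of only progenitor and immature arrays (adjusted p = 0.129).

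Cyp8b1, the sterol 12-alpha-hydroxylase of bile acid synthesis, was named after its values were seen. It rose from stem cells, at 10.1, 10.8, 21.6, 11.7 and 8.43, to progenitors, at 33.9, 32.95 and 38.6 (0.86 ± 0.20, adjusted p = 0.00203). From immature signals of 72.2, 54.5, 57.2 and 28.2 it rose again to 160.5, 94.5, 131 and 129 in adult cells (1.09 ± 0.20, adjusted p = 0.000371). Cyp39a1, a hydroxylase of 24-hydroxycholesterol, was higher in progenitors, at 34.1, 25.8 and 26.3, than in stem cells, at 7.11, 7.06, 9.11, 9.50 and 9.45 (0.87 ± 0.15, adjusted p = 7.54e-05), and was not called later.

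Cyp7b1, the oxysterol and androgen metabolite 7-alpha-hydroxylase, went the other way. Its signals were low throughout, at 18.3, 10.8, 24.7 and 11.7 in immature and 1.14, 0.931, 7.78 and 1.19 in adult cells, and it fell at that step (-0.78 ± 0.16, adjusted p = 0.00148). The brain cholesterol 24-hydroxylase Cyp46a1 lay between 1.72 and 17.5 on all arrays. Cyp27b1, which activates vitamin D, had group means from 16.7 to 22.0 and was called in no comparison.

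Cyp26b1, which degrades retinoic acid, had the largest log2 change of the 54 genes at the step from stem to progenitor cells. Its signals were 5.84, 14.1, 19.8, 24.9 and 7.31 in stem cells, 1336, 1581 and 2421 in progenitors, 1479, 1908, 1798 and 2125 in immature cells and 291, 304, 154 and 176 in adult cells. Stem arrays were at the bottom, progenitor and immature arrays overlapped at the top, and adult arrays lay between. The rise was 5.88 ± 0.25, adjusted p = 2.87e-13, and the later fall was -2.94 ± 0.25, adjusted p = 4.6e-08. A second probe set gave the same directions, with log2 changes of 5.74 and -3.38. Cyp26a1, the other retinoic acid hydroxylase measured, was dim in all groups and not called.

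Cyp2d4 and Cyp4b1 followed the same course. Cyp2d4 belongs to the debrisoquine hydroxylase subfamily and is known from the brain. It had signals of 37.97, 16.9, 31.8, 21.6 and 29.1 in stem, 131, 109 and 151 in progenitor, 144, 134, 160.2 and 151 in immature and 38.2, 60.1, 31.9 and 33.6 in adult cells. It rose by 1.76 ± 0.18, adjusted p = 9.07e-08 and then changed by -1.54 ± 0.17, adjusted p = 1.66e-06, and its second probe set was called the same way at both steps (1.94 and -1.49). Cyp4b1, an enzyme of the lung, had signals of 16.8, 12.5, 22.2, 19.2 and 13.6 in stem, 50.96, 65.2 and 57.4 in progenitor, 67.2, 56.6, 61.6 and 93.8 in immature and 39.4, 40.02, 29.3 and 28.4 in adult cells. Its rise was 1.17 ± 0.23, adjusted p = 0.000348. Its later change was -0.76 ± 0.22, adjusted p = 0.0172, which was not called after quantile normalization (adjusted p = 0.0714) or median centring (0.0597), nor without immature replicate 4 (0.0674), adult replicate 3 (0.0515) or adult replicate 4 (0.0555).

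**Figure D4:**
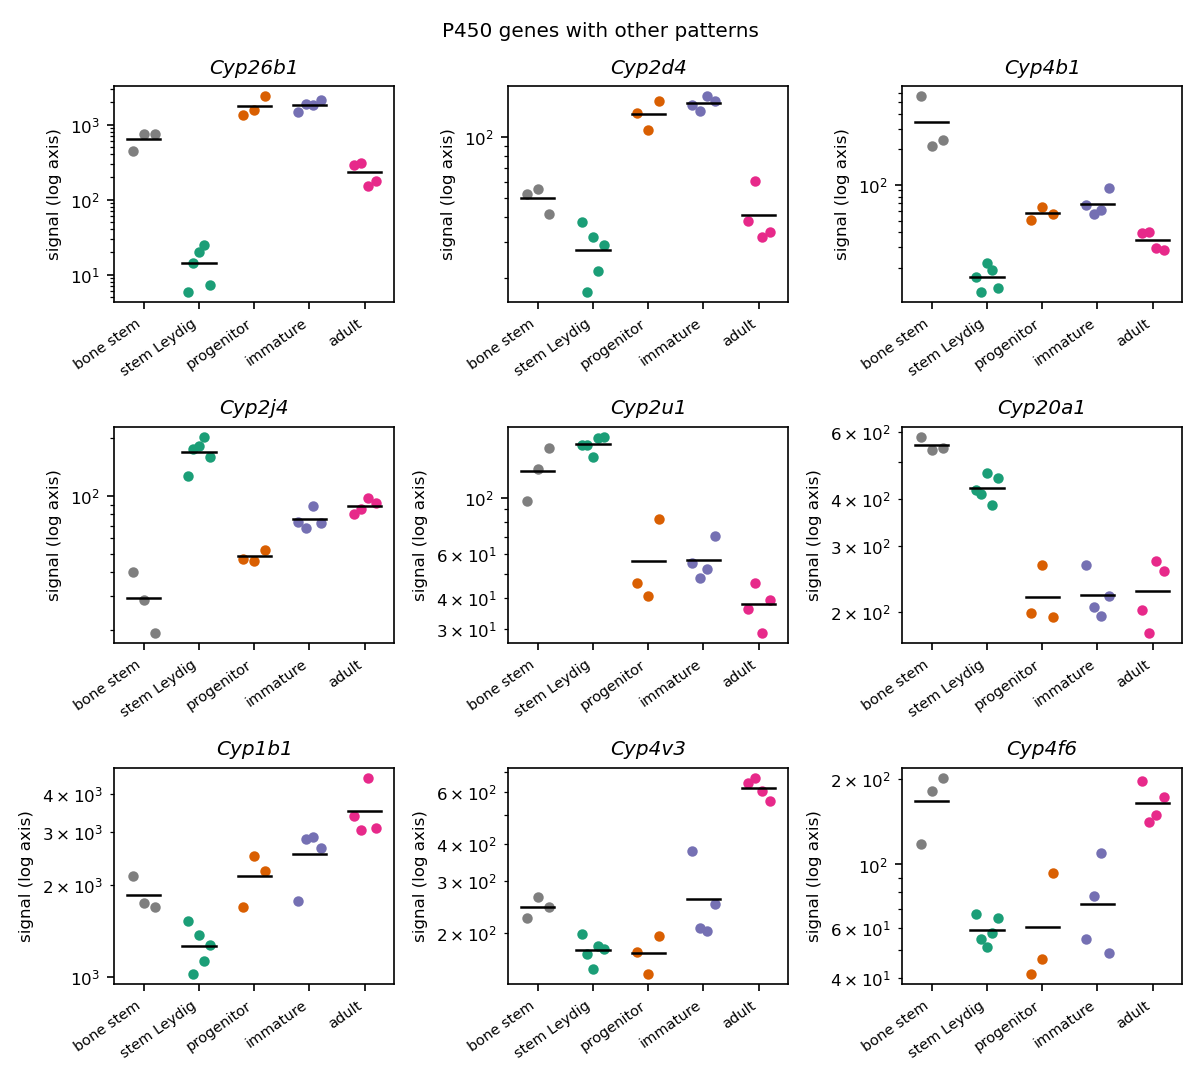
Signals on a log axis for 9 P450 genes with other patterns, with 1 point per array, 5 groups along the x axis and a bar at the group mean. Cyp26b1, Cyp2d4 and Cyp4b1 are higher in progenitor and immature than in stem or adult cells, and Cyp2j4, Cyp2u1 and Cyp20a1 are highest among the Leydig stages in stem cells.

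Family 1 is under control of the aryl hydrocarbon receptor, and Cyp1b1, which hydroxylates estrogens and retinol, had its lowest signal on any array at 1025. Its signals were 1524, 1025, 1376, 1127 and 1279 in stem, 1697, 2495 and 2225 in progenitor, 1776, 2848, 2885 and 2656 in immature and 3379, 3042, 4503 and 3085 in adult cells. Stem and progenitor arrays did not overlap (0.74 ± 0.18, adjusted p = 0.00306). Every adult array was above every immature one, but that step did not pass the test (0.47 ± 0.18, adjusted p = 0.0709). It did after median centring (adjusted p = 0.0107). Cyp1a1, the classic target of the same receptor, lay between 0.492 and 4.02 on all arrays. Cyp1a2, named after its values were seen, had immature signals of 2.72, 17.4, 30.1 and 10.1 and adult signals of 2.49, 6.03, 1.75 and 2.24. Those groups overlapped, and its call (-0.63 ± 0.19, adjusted p = 0.0233) was lost without any of adult replicates 1, 3 and 4 or immature replicates 2 and 3, with adjusted p from 0.0527 to 0.0913.

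Another set of members was highest among the Leydig stages in stem cells. Cyp2j4, an epoxygenase of arachidonic acid, had signals of 127, 175, 181, 203 and 159 in stem and 47.1, 45.6 and 52.4 in progenitor cells (-1.51 ± 0.15, adjusted p = 1.03e-07). It did not return to the stem level later, with immature signals of 73.3, 68.1, 88.5 and 72.4 and adult signals of 80.6, 84.9, 97.1 and 91.8. Cyp2u1, a hydroxylase of long-chain fatty acids, had signals of 162, 163, 146, 173 and 175 in stem and 45.7, 40.5 and 82.7 in progenitor cells (-1.36 ± 0.18, adjusted p = 3.37e-06). It stayed low in adult cells, at 36.3, 45.96, 28.98 and 39.3. Bone stem arrays had 96.9, 130 and 158, and Cyp2u1 was not called between the stem groups (0.34 ± 0.18, adjusted p = 0.224).

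Cyp20a1, an orphan P450 without an established substrate, had signals of 421, 412, 469, 385 and 452 in stem and 199, 266 and 195 in progenitor cells (-0.92 ± 0.14, adjusted p = 2.25e-05). It was level afterwards, with means of 222 ± 31.4 (SD, n = 4) in immature and 227 ± 45.5 (SD, n = 4) in adult cells. Bone stem arrays, at 583, 538 and 545, all lay above the stem Leydig arrays. That difference was not called (-0.37 ± 0.14, adjusted p = 0.0776). Cyp3a9, of the large drug-metabolizing subfamily 3a, had stem signals of 15.4, 21.7, 34.2, 59.1 and 30.2 and progenitor signals of 4.22, 1.69 and 5.35 (-1.22 ± 0.23, adjusted p = 0.000256). Cyp2c11, the male-specific hydroxylase of rat liver and named after its values were seen, went from 30.8, 20.8, 29.9, 16.7 and 25.6 in stem to 7.82, 4.80 and 12.5 in progenitor cells (-0.74 ± 0.21, adjusted p = 0.00875), which did not pass with progenitor replicate 2 left out (adjusted p = 0.0555).

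At this step 10 members were higher and 6 lower in progenitors, against 26.8% and 18.5% of all genes. The split turned on the scaling: it was 9 higher and 8 lower after quantile normalization, and 9 higher and 12 lower after median centring, which moved the median change of all probe sets from 0.08 to -0.15. Leukocyte markers (7 of 9), endothelial markers (5 of 5) and erythroid markers (3 of 3) were higher in progenitors at the same step, and smooth muscle markers (5 of 5) were lower. Their summed signals in progenitors and stem cells were 2399 to 2680 and 254 to 293 for leukocytes, 683 to 1430.1 and 43.3 to 90.3 for endothelium, 3379 to 5207 and 5.47 to 19.5 for erythroid cells, and 303 to 359 and 4333 to 10925 for smooth muscle. Their part in these results was not tested.

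Other cells' markers moved at the adult step as well. Germ cell markers (2 of 6 higher, 1 lower) summed to 406 to 999 in immature and 1283 to 3047 in adult cells, Sertoli markers (1 of 5 higher) to 604 to 930 and 1066 to 2093, and endothelial markers (4 of 5 higher) to 191 to 564 and 430 to 2177. Erythroid markers (3 of 3 lower) fell from 2441 to 5240 to 268 to 694, and leukocyte markers (4 of 9 lower, 2 higher) went from 1211 to 2557 to 362 to 853. Their part in the rise of the P450 genes was not tested. The 6 hepatocyte markers, among them Alb, were called in 0 of the comparisons in limma, also at an unadjusted p under 0.05 (0 of 6 at each step). They summed to 44.5 to 115 in immature and 47.9 to 83.4 in adult cells, and their relation to the P450 genes was not tested. No marker was listed at a signal of 0.

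The comparison of stem Leydig cells with bone stem cells sets the first stage against stem cells of another tissue. Of the 54 members, 5 were higher in stem Leydig cells (9.26%) and 5 lower (9.26%). Of all genes 23.9% were called, 9.73% higher and 14.1% lower. Cyp26b1 differed most: bone stem arrays had 441, 750.5 and 749, far above the stem Leydig arrays given above (-4.45 ± 0.25, adjusted p = 1.04e-10). Its second probe set gave -1.94. Cyp4b1 was also higher in bone stem than in stem Leydig cells, at 567, 214 and 241 (-3.32 ± 0.23, adjusted p = 1.34e-09). Cyp4f6, at 118, 182 and 201, was above all 5 stem Leydig arrays (-1.26 ± 0.22, adjusted p = 0.000336).

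The CYP2J genes ran the opposite way. Cyp2j4 had bone stem signals of 39.9, 28.5 and 19.3 (2.04 ± 0.15, adjusted p = 4.47e-09). Its neighbours on the chromosome, Cyp2j3 and Cyp2j10, both named after their values were seen, were also higher in stem Leydig cells. Cyp2j3 went from 1.62, 3.52 and 2.11 to 12.7, 14.8, 12.2, 28.05 and 8.87 (0.74 ± 0.16, adjusted p = 0.00251), although its second probe set was not called there (0.29). Cyp2j10 went from 9.46, 4.82 and 1.09 to 19.3, 19.3, 14.9, 17.4 and 13.5 (0.65 ± 0.18, adjusted p = 0.0124).

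The smaller differences rested on few arrays. Without bone stem replicate 3 only 6 members were called, and the calls of Cyp2j10 (adjusted p = 0.113), Cyp2c11 (0.0916), Cyp7b1 (0.254) and Cyp1b1 (0.0719) were lost. Cyp1b1 had bone stem signals of 2141, 1755 and 1701 (-0.56 ± 0.18, adjusted p = 0.0392), and was not called without bone stem replicate 1 (0.165) or 2 (0.0857), or stem replicate 2 (0.0998), 4 (0.079) or 5 (0.0598). Cyp2d4, at 52.1, 55.1 and 41.3 (-0.61 ± 0.18, adjusted p = 0.0193), was not called without bone stem replicate 1 (0.0649) or 2 (0.103), or stem replicate 2 (0.0539). Its second probe set was not called between the stem groups (-0.32 ± 0.20, adjusted p = 0.339). Cyp7b1 went from 9.77, 8.37 and 0.576 in bone stem to 16.7, 16.2, 14.95, 19.8 and 12.2 in stem Leydig cells (0.55 ± 0.17, adjusted p = 0.0273) and was also lost without stem replicate 4 (0.0625). Cyp2c11 went from 15.1, 4.67 and 6.91 to the stem signals above (0.72 ± 0.21, adjusted p = 0.0203) and was also lost without bone stem replicate 2 (0.132). Leukocyte markers were lower in stem Leydig than in bone stem cells (8 of 9), with the sums given above, and their part in these results was not tested.

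The partners of the P450 enzymes were read from lists chosen with earlier results known. Of 7 electron donors and partners measured, 4 were higher and 2 lower in progenitor than in stem cells, against 26.8% and 18.5% of all genes. Fdx1 rose from a mean of 314 ± 67.9 (SD, n = 5) to 3271 ± 747 (SD, n = 3), by 3.32 ± 0.23, adjusted p = 2.89e-10, and Por from 276 ± 66.3 (SD, n = 5) to 482 ± 65.95 (SD, n = 3), by 0.79 ± 0.15, adjusted p = 0.000338. At the adult step Por was not called (0.10 ± 0.15, adjusted p = 0.716). Cyb5a, Cyb5b, Pgrmc1 and Pgrmc2, which are cytochrome b5 proteins and heme-binding P450 partners, were higher there (4 of 7, against 12% of all genes). Pgrmc2 went from 364 ± 47.1 (SD, n = 4) to 653 ± 43.99 (SD, n = 4), by 0.82 ± 0.13, adjusted p = 9.85e-05.

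Several genes of heme synthesis rose from stem to progenitor cells, at both ends of the pathway. The 3 erythroid markers measured, Hbb, Alas2 and Slc4a1, were also higher at that step. They summed to 5.47 to 19.5 in stem and 3379 to 5207 in progenitor cells, and their part in the changes of the heme genes was not tested. Alas1, the rate-limiting enzyme of heme synthesis, had means of 192 ± 37.6 (SD, n = 5) in stem, 1035 ± 229.7 (SD, n = 3) in progenitor, 1755 ± 217 (SD, n = 4) in immature and 2864 ± 498 (SD, n = 4) in adult cells. It was called at every step, with log2 changes of 2.33, 0.77 and 0.69. Alad, the next enzyme, was higher at the first and the last step. Cpox, coproporphyrinogen oxidase, and Fech, the enzyme that inserts the iron, rose from stem to progenitor cells (0.77 ± 0.15, adjusted p = 0.000361 and 0.82 ± 0.12, adjusted p = 1.24e-05) and were not called later. Of the 11 genes of heme synthesis and breakdown measured, 5 were higher and 1 lower in progenitors than in stem cells, against 26.8% and 18.5% of all genes. The lower one was Hmox1, heme oxygenase, which fell by 1.96 on the log2 scale from stem to progenitor cells and rose by 1.77 ± 0.16, adjusted p = 1.74e-07 at the adult step. The 5 higher ones were Alas1, Alad, Cpox and Fech of synthesis and Blvrb of breakdown. In adult cells 5 were higher than in immature cells, against 12% of all genes, and the others were not called. These 5 were Alas1 and Alad of synthesis and Hmox1, Blvra and Blvrb of breakdown. Ephx1, the microsomal epoxide hydrolase that acts on epoxides made by P450 enzymes, rose from 214 ± 48.9 (SD, n = 5) in stem cells. Progenitors had 1291 ± 279.6 (SD, n = 3), and the gene reached 3479.9 ± 456 (SD, n = 4) in adult cells.

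**Figure D5:**
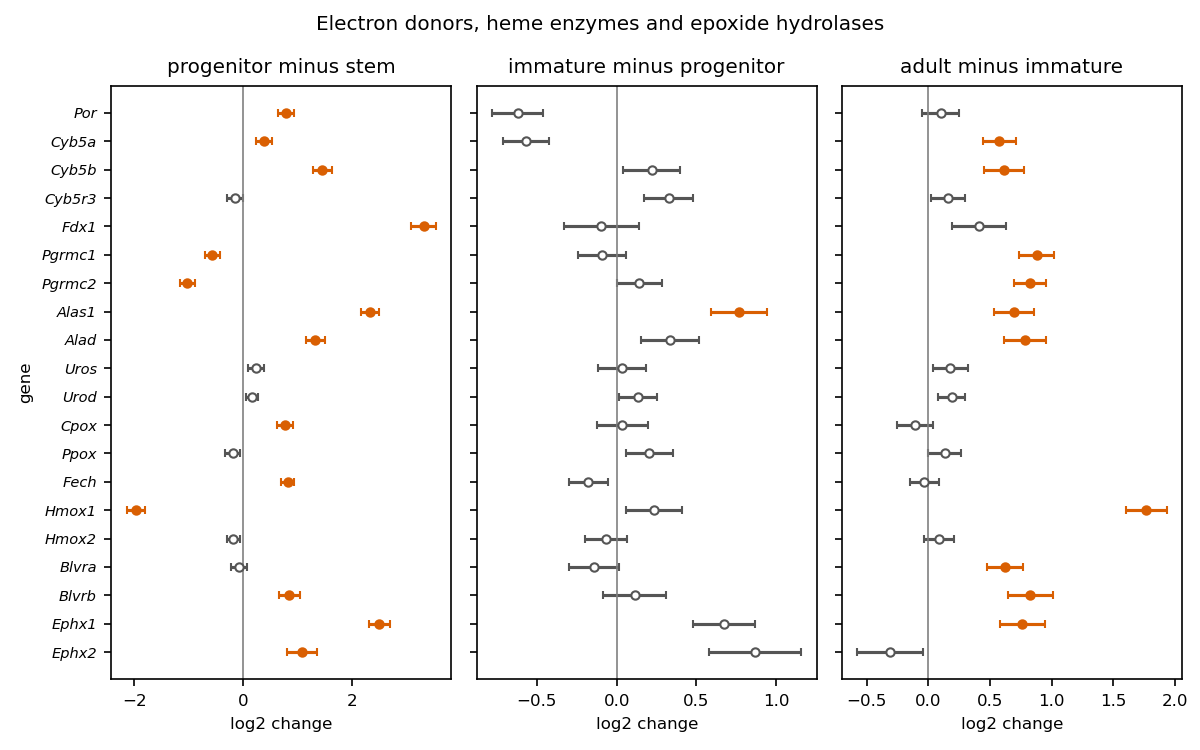
Log2 change of the signal (x axis, bars are SE) at 3 steps of the Leydig lineage for 20 genes of electron transfer, heme metabolism and epoxide hydrolysis, with filled points for called changes. Fdx1, Alas1 and Ephx1 lie farthest to the right at the step from stem to progenitor cells, and Hmox1 lies at the left there and at the right at the adult step.

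Of 19 transcription factors known to control P450 genes, 5 were higher (26.3%, against 26.8% of all genes) and 3 lower (15.8%, against 18.5%) in progenitors than in stem cells. In adult cells 3 were higher than in immature cells (15.8%, against 12%), and the others were not called. These shares are near those of all genes. Ahr, the aryl hydrocarbon receptor, fell by 1.26 on the log2 scale from stem to progenitor cells, and its repressor Ahrr by 2.14, at a step where Cyp1b1 rose. The 3 higher in adult cells were Nr5a1 (0.58 ± 0.12, adjusted p = 0.000971), Nr0b2 (0.92 ± 0.17, adjusted p = 0.000506) and Nr1h3 (0.65 ± 0.18, adjusted p = 0.0109), which are steroidogenic factor, small heterodimer partner and a sterol-sensing liver X receptor. The liver receptors Nr1i3 and Hnf4a were dim, with adult means of 6.43 ± 3.80 and 5.25 ± 3.22 (SD, n = 4), and were called at no step. Other receptors of the list were called: the 5 factors higher in progenitor than in stem cells were Nr1i2, Rxrb, Nr1h4, Nr5a1 and Nr0b2.

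The 3 P450 enzymes whose symbols fall outside the rule showed no common course. Cyp51, lanosterol demethylase of cholesterol synthesis, was higher in adult than in immature cells (0.51 ± 0.16, adjusted p = 0.0317), and Ptgis, prostacyclin synthase, was lower (-2.48 ± 0.31, adjusted p = 6.19e-06). Tbxas1, thromboxane synthase, was lower in stem Leydig than in bone stem cells (-2.45 ± 0.20, adjusted p = 1.2e-08), where it had a mean of 156 ± 31.7 (SD, n = 3).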

How the data were processed

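Total RNA was extracted with Trizol and RNEasy columns, and 6 ug of it gave the biotin-labelled cRNA, as the labels' protocols state. The authors deposited linear intensities for every probe set on every array. The submitters' processing notes name MAS5 and GCOS. Each array's 2% trimmed mean was already 100. Of 31099 probe sets 57 controls were left out. Symbols came from the platform annotation, and all 54 members matched RefSeq by gene ID. Signals were taken as log2(signal + 16) and fitted in limma 3.58.1 (R 4.3.3) with 5 group means and an intensity trend, with two-sided tests and Benjamini-Hochberg adjustment. The model was tested on simulated data. The number of arrays limits the precision.

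The members, lists and promoters shown were chosen with earlier results of these data known. Genes named were 23 of 25 fixed symbols plus, per comparison, up to 8 called rises and 8 falls without overlap and with a group mean of 50 or more, 27 in all. A further 7 called members were named after their values were seen. TATAAA was added as a motif later. Alternatives were quantile normalization, median centring, a pseudocount of 1 or 64, no lowest 40% of probe sets, no trend, array weights, only the groups compared, a replicate block, all probe sets averaged, a change of 1 or more, without 2 arrays that stood apart, the closest arrays averaged, and without each array. Python 3.11.15, pandas 2.3.3 and matplotlib 3.10.9 made the tables and plots.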

Additional observations from a re-analysis of the deposited data

Results flagged for a closer look

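In 6 of the 102 groups of 4 or 5 arrays looked at, 1 array lay apart from the rest of its group by Dixon's test, and chance alone gives about 1 in 20. Cyp4f4 had a signal of 193 on immature replicate 4, while the other immature arrays lay between 379 and 405. Cyp1b1 had 1776 on immature replicate 1, against 2656 to 2885 on the others. Cyp39a1 had 26.3 on the same array, against 36.6 to 38.1. Cyp2e1 had 12.2 on immature replicate 3, against 19.8 to 21.2. Cyp7b1 had 7.78 on adult replicate 3, against 0.931 to 1.19. Cyp4f5 had 46.0 on stem replicate 2, against 39.6 to 41.3.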

How the results depend on the processing

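Of 136 results (34 named members in 4 comparisons) 46 were called, 32 of them under all alternatives that could test them, and 0 changed sign while called. The counts of called members moved by more than 1.5 times in these cases. With a change of 1 or more on the log2 scale as well, 9 were left between progenitor and stem cells, 1 between immature and progenitor and 4 between stem Leydig and bone stem cells. With array weights 5 were called between immature and progenitor and 17 between stem Leydig and bone stem cells. A fit of only the groups compared left 1 between immature and progenitor cells. Averaging the closest arrays left 5 between stem Leydig and bone stem cells. Leaving out each array in turn gave 13 to 17 between progenitor and stem, 2 to 3 between immature and progenitor, 15 to 19 between adult and immature, 6 to 12 between stem Leydig and bone stem cells, and 24 to 28 among the 4 stages. Deviations from the group mean on arrays with the same replicate number correlated at r from -0.15 to 0.26. Arrays with different numbers were not set beside them, so whether the number pairs the samples cannot be told. The replicate block gave 14, 3, 18, 8 and 25. It ended the calls of Cyp2e1 (adjusted p = 0.0794) and Cyp4f5 (0.053) between progenitor and stem, and of Cyp1b1 (0.105) and Cyp2d4 (0.0667) between stem Leydig and bone stem cells. Signals near background and few arrays limit the dim members most.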

Other observations

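The gene order around Cyp2e1 was looked at after its values were seen. Of 7 protein-coding genes next to it in RefSeq, 3 had a probe set of 1 symbol. Urah, an enzyme of uric acid breakdown and 2 places from Cyp2e1, had a mean signal of 67.0 ± 18.1 (SD, n = 4) in immature and 799 ± 119 (SD, n = 4) in adult cells, a log2 change of 3.31 ± 0.17, adjusted p = 7.65e-11. Scgb1c1, a secretoglobin and the next gene, had 3.61 ± 3.22 (SD, n = 4) and 54.1 ± 6.596 (SD, n = 4), a change of 1.85 ± 0.11, adjusted p = 4.65e-10. Both were higher on 4 of 4 adult arrays than on any immature array. Of all genes 12% were called higher at that step, and how many had no overlap was not counted. Cimap1a, beyond them, was not called (-0.38 ± 0.25, adjusted p = 0.345). Urah was also higher in progenitor than in stem cells (1.48 ± 0.17, adjusted p = 7.57e-07). It was higher again in immature than in progenitor cells (0.75 ± 0.18, adjusted p = 0.041). Cyp2e1 had means of 18.5 in progenitor and 18.3 in immature cells and was not called there.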
